A study of Mus musculus with 24 samples.

Results

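Liver RNA from mice given extracellular vesicles (EVs) labelled MCF10A/miR-122 EV was compared with liver RNA from mice given MCF10A EVs. The comparison used 12 of the 24 libraries of the study, 6 in each group, which were chosen by the treatment label of each library in a table of read counts per gene. The other 12 libraries, 6 given PBS and 6 given EVs labelled MDA-MB-231 EV, are used as background. All mice, the controls included, were female NOD scid gamma (NSG) animals, 8 weeks old, a strain without functional T, B and natural killer cells. EVs or PBS went into the tail vein 2 times a week over 5 weeks, with about 10 µg of EVs each time, and livers were taken 2 days after the final dose. EVs are membrane particles that cells shed, with protein and RNA inside. MCF10A is a non-cancerous human breast epithelial line, and MDA-MB-231 is a human breast cancer line. The label MCF10A/miR-122 names the same breast line together with miR-122, a microRNA that hepatocytes themselves make in very large amounts. How miR-122 was added is not given in the sources used here. The labels do not say whether a library is 1 mouse. It is taken as such here, and p-values measure the spread between these libraries.

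Labels and library names conflicted, and every direction below depends on this. The treatment label MCF10A/miR-122 EV is on 6 libraries whose own names carry the number of the cancer line and the word exo. The number of the microRNA is instead in the names of the 6 libraries with the treatment label MDA-MB-231 EV. The MCF10A EV libraries are named for 10A and pBABE, a retroviral vector. Groups are given here by their treatment labels, and the 6 livers labelled MCF10A/miR-122 EV are called the miR-122-labelled livers. The value that each gene would have with the identities of the library names, which is the difference between the livers labelled MDA-MB-231 EV and the MCF10A EV livers, is given beside it as "by library names". Those values share the MCF10A EV livers with the comparison by labels and are not independent of it. Library numbers add another limit: the PBS and MCF10A EV libraries carry the first 12 numbers, and both other groups carry the last 12. Number range and treatment cannot be told apart, because each side of the comparison lies in 1 range, so the levels of PBS livers, and for some genes of the livers labelled MDA-MB-231 EV, are given beside many of the leading genes. Depth was 21336818 to 29268884 counts per library in the MCF10A EV livers and 26819650 to 33732639 in the miR-122-labelled livers. The first principal component, with 23% of the variance, ran from -27.1 to -8.1 in the 12 libraries of the first range and from 8.89 to 30.8 in the 12 of the last.

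Across the liver transcriptome, 2237 of 13773 tested genes passed an adjusted p of 0.05 (16.2%), by edgeR's quasi-likelihood F test with Benjamini-Hochberg adjustment over all genes tested. Of these, 1037 were higher (7.53%) and 1200 were lower (8.71%) in the miR-122-labelled livers. More than 2-fold differences were found in 125 of the higher and 182 of the lower genes. The 6 libraries of one group did not overlap with the 6 of the other in 775 genes (5.63%), of which 330 were higher (2.4%) and 445 lower (3.23%). By library names 1058 genes passed (7.68%), and between the miR-122-labelled livers and the livers labelled MDA-MB-231 EV, which share the last number range, 35 did (0.254%). Levels below are in CPM, read counts scaled to the size of each library with trimmed-mean factors. Where 2 ranges of CPM stand together, the MCF10A EV livers come first. Fold changes are log2, the miR-122-labelled livers minus the MCF10A EV livers, and a value given for a gene with no other unit is this log2 fold change. The lists of genes were drawn up with earlier results of these data known, so their counts are descriptions, to be read against the shares of all genes tested.

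In the liver, serum amyloid A proteins, haptoglobin, lipocalin 2 and other acute phase proteins are made by hepatocytes under the control of IL-6, IL-1 and the C/EBP and NF-kB factors. Hepatocytes also run a circadian clock. Its activators (Bmal1, encoded by Arntl, with Clock or Npas2) bind E-boxes and drive repressors of the Per and Cry families and output factors such as Dbp, and the nuclear receptors Rev-erb and ROR compete at a response element (RORE) in Arntl itself. Much of the metabolism of glucose, lipids, bile acids and drugs in liver follows this clock and feeding. Kupffer cells are the liver's resident macrophages and take up particles from the blood.

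The 3 acute phase Saa genes were the clearest mark of the miR-122-labelled livers: all 6 libraries stood above the other 18 of the study. Saa1 was at 25.4 to 53.7 (median 37.3) CPM in the MCF10A EV livers and at 339 to 824 (median 552) CPM in the miR-122-labelled livers. PBS livers had 16.2 to 49.9 CPM and the livers labelled MDA-MB-231 EV 23.2 to 80.6 CPM. No library of the other 3 groups reached the lowest of the miR-122-labelled livers, where replicates 2 and 4 were highest for all 3 genes and replicate 1 was lowest. The log2 fold change of Saa1 was 3.84 (SE 0.31, adjusted p = 5.76e-09), a 14.4-fold rise.

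Saa2 was at 15.4 to 31.5 (median 21.7) CPM in the MCF10A EV livers and at 189.8 to 561 (median 331) CPM in the miR-122-labelled livers. It rose by 4.05 (SE 0.41, adjusted p = 2.41e-07), against 8.89 to 44.8 CPM in PBS livers. Saa3 was at 2.79 to 4.82 (median 3.78) CPM in the MCF10A EV livers and at 25.7 to 112 (median 61) CPM in the miR-122-labelled livers. The groups were far apart, and Saa3, the form made mainly by macrophages and other cells outside the hepatocyte, rose by 4.13 (SE 0.27, adjusted p = 8.92e-11) against 3.42 to 5.75 CPM in PBS livers. With the names of the libraries the values were -0.03, 0.13 and 0.09 for Saa1, Saa2 and Saa3 (adjusted p = 0.967, 0.889 and 0.897). Within the last number range, the miR-122-labelled livers exceeded those labelled MDA-MB-231 EV by 3.87, 3.93 and 4.04 (adjusted p = 3.21e-08, 4.24e-06 and 9.75e-10). Saa1 and Saa2 are near copies: 45.7% and 43.4% of their 32-base words occur in another gene, so reads may have been split between them.

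The promoters of these 3 genes are shown because the genes moved together. They are RefSeq windows of 300 bases (GRCm38.p6, 250 bases before to 50 after the start of the gene), for Saa1 chr7:46742931-46743230 on the minus strand, for Saa2 chr7:46751583-46751882 on the plus strand and for Saa3 chr7:46715627-46715926 on the minus strand. Capitals mark a C/EBP-type motif (TTGCNNAA, searched on both strands), which each window held once and which 10.8% of 32851 promoter windows of the same length held. An NF-kB-type motif (GGGNN followed by TTNCC, in 4.79% of all windows) was searched too and was in none of the 3 windows, which says only that these letters are not there. The longest run that Saa1 and Saa2 shared was 65 bases, and Saa3 shared 8 with each.
Saa1 promoter: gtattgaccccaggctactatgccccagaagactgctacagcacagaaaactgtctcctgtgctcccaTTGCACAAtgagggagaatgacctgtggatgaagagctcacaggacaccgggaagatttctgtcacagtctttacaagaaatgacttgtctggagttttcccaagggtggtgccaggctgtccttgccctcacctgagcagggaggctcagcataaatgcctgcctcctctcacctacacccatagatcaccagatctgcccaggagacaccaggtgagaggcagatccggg
Saa2 promoter: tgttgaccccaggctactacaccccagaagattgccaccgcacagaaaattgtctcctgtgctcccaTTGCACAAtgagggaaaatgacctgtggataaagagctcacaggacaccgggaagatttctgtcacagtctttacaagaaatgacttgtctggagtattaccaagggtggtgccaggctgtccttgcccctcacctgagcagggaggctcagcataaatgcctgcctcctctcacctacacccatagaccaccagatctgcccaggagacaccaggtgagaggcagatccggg
Saa3 promoter: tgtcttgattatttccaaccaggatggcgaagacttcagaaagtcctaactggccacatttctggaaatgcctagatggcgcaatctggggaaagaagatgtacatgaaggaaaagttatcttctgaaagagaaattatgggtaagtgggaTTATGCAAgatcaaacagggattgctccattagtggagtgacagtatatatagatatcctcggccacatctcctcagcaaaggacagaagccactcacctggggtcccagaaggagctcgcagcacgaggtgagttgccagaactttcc

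**Figure D1:**
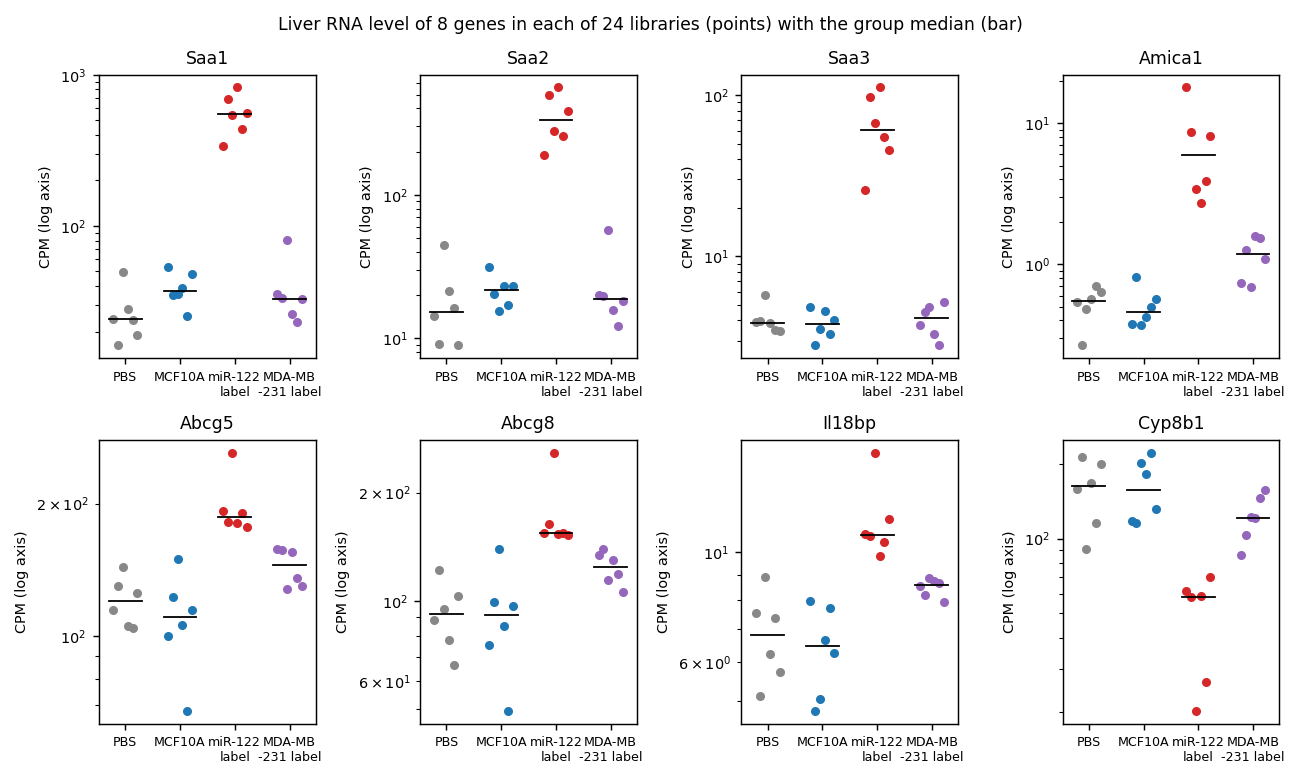
Level of 8 genes (CPM, log axis) in each of the 24 libraries, by group, with points for libraries and bars for group medians; miR-122 label is MCF10A/miR-122 EV. The 6 miR-122-labelled livers lie above all 18 others for Saa1, Saa2, Saa3, Amica1, Abcg5, Abcg8 and Il18bp and below all 18 for Cyp8b1.

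In 16 genes (0.116% of those tested) the 6 miR-122-labelled livers lay above all 18 other libraries, and in 9 (0.0653%) below them. Amica1, which encodes a junctional adhesion molecule of leukocytes, rose in all 6 libraries. Amica1 was at 0.374 to 0.814 (median 0.458) CPM in the MCF10A EV livers and at 2.74 to 17.9 (median 5.98) CPM in the miR-122-labelled livers. Its replicate 1 was the highest, and the log2 fold change was 3.84 (SE 0.40, adjusted p = 3.62e-07). The livers labelled MDA-MB-231 EV were at 0.695 to 1.59 CPM. Cxcl13, a B cell chemokine, was at 0.389 to 1.13 (median 0.867) CPM and 2.57 to 5.37 (median 3.51) CPM and rose by 2.17 (SE 0.29, adjusted p = 1.43e-05). It falls outside the rule for named genes by its low level and was chosen after its values were seen. Il18bp, the secreted protein that binds and blocks IL-18, was at 4.78 to 7.97 (median 6.45) CPM and 9.83 to 15.9 (median 10.8) CPM and rose by 0.86 (SE 0.14, adjusted p = 0.000136). Atp1b1, the beta subunit of the sodium pump, was at 33.4 to 47.8 (median 36.3) CPM and 62.1 to 95.4 (median 75.3) CPM and rose by 1.00 (SE 0.10, adjusted p = 2.98e-07). By library names, values were 1.15 for Amica1, -0.28 for Cxcl13, 0.41 for Il18bp and 0.48 for Atp1b1, and among these Atp1b1 passed (adjusted p = 0.00502). The others of the 16 were Abcg5 and Abcg8 (below), Ccdc148, Cobll1, Gngt2, Nudt19, Otud1 and the predicted loci BC023829 and Gm10684.

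Cyp8b1, the sterol 12-alpha-hydroxylase that sets how much cholic acid is made, had the largest fall among the 9 genes that were lowest in the miR-122-labelled livers. Cyp8b1 was at 116 to 221 (median 156) CPM in the MCF10A EV livers and at 20.3 to 70 (median 58.5) CPM in the miR-122-labelled livers. Its log2 fold change was -1.71 (SE 0.27, adjusted p = 9.24e-05), and PBS livers were at 91 to 213 CPM. Elovl5, an elongase of polyunsaturated fatty acids, was at 808 to 955 (median 941) CPM and 520.5 to 755 (median 659.7) CPM and fell by 0.47 (SE 0.08, adjusted p = 0.000265). Cyp4f16, of a family that hydroxylates fatty acids, had -0.67 (SE 0.08, adjusted p = 1.06e-06), Gp49a, a receptor of myeloid cells, -0.84 (SE 0.15, adjusted p = 0.000531), and Zmynd8, a chromatin reader, -0.40 (SE 0.07, adjusted p = 0.00054). The remaining members of the 9 were Fermt2 and the loci 1300002E11Rik, 2010003K11Rik (-1.09) and A930015D03Rik. For none of these 5 named enzymes, receptors and readers did the groups overlap. The values by library names were -0.40 for Cyp8b1, -0.13 for Elovl5, -0.46 for Cyp4f16, -0.01 for Gp49a and -0.12 for Zmynd8. Cyp4f16 alone of them passed there (adjusted p = 0.000306). For this gene every library of the last number range lay below every library of the first. Its levels were 18.1 to 23.4 CPM in the MCF10A EV livers and 17.4 to 23.1 CPM in PBS livers. The miR-122-labelled livers had 11.5 to 14.2 CPM and the livers labelled MDA-MB-231 EV 14.9 to 15.6 CPM. Cyp4f16 and Gp49a share 26% and 36.3% of their words with other genes.

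Beyond Saa, the acute phase list was split. Of 42 tested members, 11 were higher and 8 lower, and the list's median log2 fold change was -0.05, against -0.00387 over all genes tested. The shares of all genes tested were 7.53% higher and 8.71% lower. Lcn2, lipocalin 2, which binds bacterial siderophores, was at 14.5 to 24.7 (median 21.8) CPM and 23 to 50.7 (median 29.1) CPM. The groups overlapped, and it rose by 0.69 (SE 0.22, adjusted p = 0.0339). This call was lost without MCF10A EV replicate 1, 2 or 5 or miR-122-labelled replicate 2 or 4, with values from 0.53 to 0.78 over all 12 omissions. PBS livers had 5.94 to 12.1 CPM of Lcn2. Orm2, an orosomucoid, was at 118 to 190.2 (median 164) CPM and 165 to 374 (median 286) CPM, with overlap, and rose by 0.79 (SE 0.19, adjusted p = 0.00667). Hpx, the haem scavenger hemopexin, rose by 0.52 (SE 0.11, adjusted p = 0.00197) with no overlap. Mt1, the metal-binding metallothionein 1, was at 18.4 to 48.3 (median 28.3) CPM and 58.6 to 256 (median 88.1) CPM and rose by 1.87 (SE 0.47, adjusted p = 0.00769), but PBS livers spanned 24.6 to 246 CPM. Fga, a fibrinogen chain, had -0.41 (SE 0.10, adjusted p = 0.00686). Haptoglobin (Hp) had 0.22 (adjusted p = 0.15) and Fgb -0.24 (adjusted p = 0.121), and neither passed. Hp was already higher in the MCF10A EV livers than in PBS livers, by 0.64 (adjusted p = 0.00574). Taken by library names, the values were -0.81 for Lcn2 (adjusted p = 0.027), -0.22 for Orm2, 0.12 for Hpx, 0.32 for Mt1 and -0.15 for Hp. The list then had 1 member higher and 3 lower. The count of lower members was 5 without MCF10A EV replicate 3 or miR-122-labelled replicate 1, 5 or 6.

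The Serpina3 cluster, protease inhibitors in tandem copies, had lower levels in most members. Of 11 tested members, 8 were lower and 0 higher by edgeR's test (0 at an unadjusted p under 0.05, 0 by DESeq2 and 0 by limma-voom), with a median of -1.07 (5 lower without MCF10A EV replicate 3). Serpina3a was at 128 to 325 (median 170.5) CPM in the MCF10A EV livers and 109.6 to 298 CPM in PBS livers, but at 0.285 to 4.92 (median 0.624) CPM and 0.467 to 5.85 CPM in both groups of the last number range. The 2 number ranges did not overlap, and the log2 fold change was -7.06 (SE 0.62, adjusted p = 2.75e-08), by library names -6.07. Serpina3b was at 0.923 to 15.3 (median 1.8) CPM and fell to 1 to 4 counts per library (adjusted p = 0.000709), too few for a fold. Serpina3f was at 256 to 482 (median 348) CPM in the MCF10A EV livers and at 99.8 to 212 (median 154) CPM in the miR-122-labelled livers. Serpina3f had -1.25 (SE 0.20, adjusted p = 0.000141), Serpina3g -1.13 and Serpina3h -1.33. By library names these 3 had -1.19, -0.94 and -0.98. From 26.2% to 38.8% of the words of Serpina3f, Serpina3g and Serpina3h occur in other genes, so the members' own levels are uncertain.

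Of 7 tested clock activators and members of the stabilizing loop, 4 fell and 1 rose, with a median of -0.58, and by library names 2 fell and 0 rose. The 4 that fell were Arntl, Npas2, Clock and Nfil3. Arntl was at 13 to 30.2 (median 18) CPM in the MCF10A EV livers and at 1.33 to 3.71 (median 2.92) CPM in the miR-122-labelled livers. Arntl fell, with -2.91 (SE 0.40, adjusted p = 1.86e-05), and PBS livers spanned 4.79 to 29.6 (median 6.19) CPM. The livers labelled MDA-MB-231 EV had 2.23 to 4.61 CPM of Arntl. For this gene every library of the last number range lay below every library of the first. Npas2 was at 1.72 to 12.1 (median 3.96) CPM in the MCF10A EV livers and at 0.09 to 0.267 (median 0.241) CPM in the miR-122-labelled livers. The groups did not overlap for either activator, and Npas2 had -4.62 (SE 0.81, adjusted p = 0.000376). The miR-122-labelled livers gave 3 to 9 counts of Npas2 per library, so the size of this fold is imprecise, and PBS livers, at 0.399 to 12.4 (median 0.597) CPM, lay below all of the MCF10A EV livers in 4 of 6 libraries. Clock, which pairs with the Arntl product, had -0.58 (SE 0.17, adjusted p = 0.0243), and its call was lost without MCF10A EV replicate 3 or miR-122-labelled replicate 4, 5 or 6 (-0.66 to -0.44 over all 12 omissions). Nfil3, a repressor at D-boxes, had -1.23 (SE 0.29, adjusted p = 0.00466). The Rev-erb alpha gene Nr1d1, counted with the repressors, did not pass (-0.04, adjusted p = 0.885), with 3 of 6 libraries above the median of the MCF10A EV livers, and its sign turned without MCF10A EV replicate 6 (0.08) or miR-122-labelled replicate 2 (0.05) or 6 (0.02). By library names Arntl had -2.49, Npas2 -4.0, Clock -0.43, Nfil3 -0.78 and Nr1d1 0.51.

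Of 16 repressors and clock outputs, 14 rose and 0 fell by edgeR's test (1 at an unadjusted p under 0.05, 1 by DESeq2 and 0 by limma-voom), with a median of 1.49, and 14 rose when any 1 of the 12 libraries was left out. Gm129, also named Ciart, represses the Arntl product, and it had the largest rise. Gm129 was at 0.655 to 3.15 (median 1.1) CPM in the MCF10A EV livers and at 15.9 to 51.2 (median 22.1) CPM in the miR-122-labelled livers. PBS livers reached 10.1 CPM, below the lowest of the miR-122-labelled livers, and the log2 fold change was 4.31 (SE 0.48, adjusted p = 8.95e-07). The livers labelled MDA-MB-231 EV had 10.3 to 27.7 CPM of Gm129. For this gene every library of the last number range lay above every library of the first. Usp2 was at 2.13 to 6.43 (median 2.93) CPM in the MCF10A EV livers and at 29 to 66.7 (median 41.7) CPM in the miR-122-labelled livers. Usp2, a deubiquitinase that cycles in liver, rose by 3.65 (SE 0.36, adjusted p = 1.73e-07), and PBS livers had 3.05 to 17.7 (median 7.7) CPM. Dbp was at 2.2 to 23.9 (median 12.9) CPM in the MCF10A EV livers and at 71.7 to 149 (median 104) CPM in the miR-122-labelled livers. Dbp, the D-box activator, rose by 3.07 (SE 0.54, adjusted p = 0.000358), with no overlap. PBS livers, however, ran from 3.57 to 118 CPM for Dbp, into the range of the miR-122-labelled livers.

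The Per repressors rose too. Per3 was at 3.32 to 14.5 (median 7.94) CPM and 23.2 to 51.7 (median 48.4) CPM, with 4.88 to 62.1 CPM in PBS livers, and had 2.36 (SE 0.43, adjusted p = 0.000512). Per1 was at 8.93 to 34.3 (median 20.5) CPM and 49.8 to 94.8 (median 69) CPM, with 3.56 to 39.8 CPM in PBS livers, and had 1.79 (SE 0.41, adjusted p = 0.00394). For both genes the miR-122-labelled livers and the MCF10A EV livers did not overlap. The livers labelled MDA-MB-231 EV had 50.3 to 68.5 CPM of Per1. For Per1, every library of the last number range lay above every library of the first. Per2 had 1.58 (SE 0.29, adjusted p = 0.000586), Cry2 0.81 (SE 0.11, adjusted p = 1.77e-05) and Nr1d2, which encodes Rev-erb beta, 1.01 (SE 0.18, adjusted p = 0.000537). Wee1, a kinase that holds the cell cycle before mitosis, was at 0.935 to 2.36 (median 1.92) CPM and 6.15 to 19.8 (median 9.08) CPM and had 2.65 (SE 0.35, adjusted p = 1.27e-05), but PBS livers, at 1.74 to 11.3 (median 8.05) CPM, overlapped with the miR-122-labelled livers. Among other outputs, the D-box factor Tef had 1.52, its relative Hlf 0.44, Ccrn4l (nocturnin) 1.47 and Bhlhe40 1.04. With the names of the libraries the values were 3.53 for Gm129, 2.42 for Usp2, 2.87 for Dbp, 2.0 for Wee1, 2.30 for Per3, 1.5 for Per1 and 0.55 for Cry2. Counted that way, 14 of the 16 were higher and 1 lower. The list's summed level was 507 to 773 CPM in the MCF10A EV livers, 1150 to 1570 in the miR-122-labelled livers, 1070 to 1350 in the livers labelled MDA-MB-231 EV and 548 to 923 in PBS livers.

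**Figure D2:**
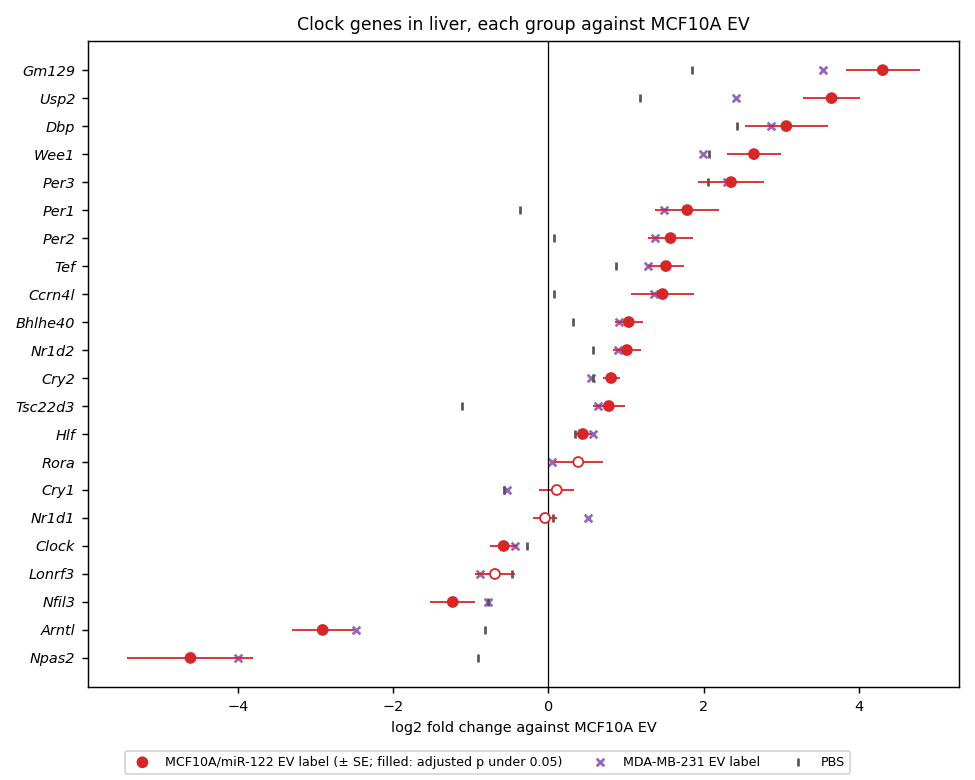
Log2 fold change against MCF10A EV of 22 of the 23 tested clock genes in the miR-122-labelled livers (circles with SE bars, filled where the adjusted p is under 0.05), in the livers labelled MDA-MB-231 EV (crosses) and in PBS livers (ticks); all 3 share the MCF10A EV livers as the reference. Gm129 is at the top with 4.31 and Npas2 at the bottom with -4.62 in the miR-122-labelled livers.

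Promoter windows of 10 clock genes (13 windows, RefSeq, GRCm38.p6, 300 bases each) were searched for the E-box, the D-box and the RORE, and 6 windows held at least 1. The windows of Gm129, Per3 and Arntl are shown as the examples with the most E-boxes, the most D-boxes and the single RORE, and were chosen after the search. Per1 had 1 E-box in 1 of its 2 windows, and Tef 1 in each of 2. No match was found for Cry2, Dbp, Npas2, Nr1d2 and Usp2, nor in the other window of Arntl, which says only that these letters are not in those windows. For Gm129 (chr3:95882179-95882478, minus strand) capitals mark 3 E-boxes (CACGTG, in 7.15% of all windows). For Per3 (chr4:151044616-151044915, minus strand) they mark 2 D-boxes (TTANGTAA, in 2.32%). For Arntl (chr7:113207261-113207560, plus strand) they mark a RORE (AANT followed by AGGTCA, in 0.219%). Both strands were searched, and a match in letters is a description of the window.
Gm129 promoter: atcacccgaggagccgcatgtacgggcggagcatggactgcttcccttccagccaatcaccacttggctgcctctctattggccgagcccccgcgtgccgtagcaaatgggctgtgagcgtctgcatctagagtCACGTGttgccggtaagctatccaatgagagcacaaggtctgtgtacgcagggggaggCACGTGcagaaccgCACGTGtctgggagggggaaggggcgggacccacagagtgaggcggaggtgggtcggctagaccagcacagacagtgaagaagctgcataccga
Per3 promoter: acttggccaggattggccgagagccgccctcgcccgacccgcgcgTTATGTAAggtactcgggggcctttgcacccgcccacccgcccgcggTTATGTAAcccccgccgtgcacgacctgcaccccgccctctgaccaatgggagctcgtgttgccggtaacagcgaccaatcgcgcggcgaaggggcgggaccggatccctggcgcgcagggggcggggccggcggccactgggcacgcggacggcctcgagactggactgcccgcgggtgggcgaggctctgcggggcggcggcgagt
Arntl promoter: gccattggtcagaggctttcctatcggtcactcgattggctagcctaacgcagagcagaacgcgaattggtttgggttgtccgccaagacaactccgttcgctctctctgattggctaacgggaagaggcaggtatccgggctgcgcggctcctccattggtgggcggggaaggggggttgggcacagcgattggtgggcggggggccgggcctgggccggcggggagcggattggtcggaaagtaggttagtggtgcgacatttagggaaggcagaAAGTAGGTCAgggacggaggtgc

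Genes of glucose supply were higher in part. Of 20 gluconeogenesis genes, 7 were higher and 1 lower, with a median of 0.36 (4 higher without MCF10A EV replicate 2). The shares of all genes tested were 7.53% higher and 8.71% lower. Tat, tyrosine aminotransferase, was at 841 to 1655 (median 1290.1) CPM and 2044 to 3824 (median 2893) CPM, with no overlap, and rose by 1.20 (SE 0.24, adjusted p = 0.00108). Klf15, a fasting-induced regulator of amino acid breakdown, had 0.60 and Gpt2, an alanine aminotransferase, 0.53, and both passed. For Tat and Klf15, every library of the last number range lay above every library of the first. PBS livers had 497 to 1673 CPM of Tat and 85.3 to 155 CPM of Klf15. The livers labelled MDA-MB-231 EV had 1901 to 2679 and 222 to 258 CPM. The key enzymes Pck1 and G6pc did not pass, at 0.62 (adjusted p = 0.128) and 0.47 (adjusted p = 0.443). Pck1 ranged over 898 to 3981 (median 2463) CPM in the MCF10A EV livers, where replicate 5 was far below the others, and over 3539.8 to 5647 (median 3792) CPM in the miR-122-labelled livers. The coactivator Ppargc1a had 0.82 (adjusted p = 0.0511) and passed without MCF10A EV replicate 1 or 3 or miR-122-labelled replicate 2 or 4. By library names, values were 0.95 for Tat, 0.57 for Klf15, 0.32 for Gpt2 and 0.58 for Pck1, and the list had 3 higher and 0 lower.

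Regulators of glycogen moved in both directions. Ppp1r3g, which brings a phosphatase to glycogen after feeding, was at 0.646 to 9.94 (median 7.03) CPM and 20.7 to 128 (median 27.4) CPM, and miR-122-labelled replicate 3 was the highest by far. It rose by 2.92 (SE 0.56, adjusted p = 0.000925), with 2.21 to 3.15 over the 12 omissions. Ppp1r3c, of the same family, was at 44.3 to 129 (median 59.2) CPM and 11.9 to 29.8 (median 23.6) CPM and fell, with -1.75 (SE 0.37, adjusted p = 0.00195). Gys2, the glycogen synthase of liver, had 0.87. Of 16 glycogen genes, 3 were higher and 1 lower. Among 22 genes of glycolysis and glucose uptake, 2 were higher and 1 lower. The shares of all genes tested were 7.53% higher and 8.71% lower. Pfkfb3, which makes the activator of phosphofructokinase, was at 4.18 to 10.1 (median 8.23) CPM and 14.7 to 27.1 (median 20.6) CPM and rose by 1.48 (SE 0.24, adjusted p = 0.000152), and the glucose transporter gene Slc2a2 had 0.48. The values by library names were 2.02 for Ppp1r3g, -1.18 for Ppp1r3c, 0.78 for Gys2, 1.44 for Pfkfb3 and 0.47 for Slc2a2. For Ppp1r3g and Pfkfb3, every library of the last number range lay above every library of the first. PBS livers had 0.863 to 8.62 CPM of Ppp1r3g and 3.6 to 11.9 CPM of Pfkfb3. The livers labelled MDA-MB-231 EV had 17.9 to 35.6 and 16.5 to 26.5 CPM.

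Genes that respond to glucocorticoids, hormones of fasting, stress and the daily cycle, were often higher: 8 of 17 rose and 1 fell, with a median of 0.62. Over all genes tested, 7.53% were higher and 8.71% lower. Tsc22d3 (GILZ) was at 99.2 to 151 (median 125) CPM and 186 to 266 (median 215) CPM, with no overlap, and had 0.78 (SE 0.21, adjusted p = 0.0114). It was also higher in the MCF10A EV livers than in PBS livers, by 1.12. Ddit4, a brake on mTORC1, was at 3.89 to 6.77 (median 5.17) CPM and 6.59 to 47.8 (median 13.2) CPM. Its groups overlapped, and it rose by 1.74 (SE 0.39, adjusted p = 0.00341), or by 1.12 without miR-122-labelled replicate 2. Of 17 genes of insulin and FOXO signalling, 3 were higher and 0 lower by edgeR's test (1 at an unadjusted p under 0.05, 0 by DESeq2 and 0 by limma-voom; 5 higher without miR-122-labelled replicate 4 or 5). Igfbp1, an insulin-repressed binding protein of IGF, had 1.46 (adjusted p = 0.117) and passed without MCF10A EV replicate 3 or miR-122-labelled replicate 5. Its value was 0.59 without miR-122-labelled replicate 3. By library names Tsc22d3 had 0.64 (adjusted p = 0.056), Ddit4 0.77 and the glucocorticoid list 2 higher and 2 lower.

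In lipid metabolism, lipogenic genes that passed were mostly higher and lipid droplet genes that passed were lower, but few members of either list passed. Over all genes tested, 7.53% were higher and 8.71% lower. Of 16 lipogenesis genes, 3 rose and 1 fell (5 rose without miR-122-labelled replicate 3). Thrsp, which promotes fatty acid synthesis, was at 44.1 to 206 (median 149) CPM and 314 to 798 (median 558) CPM, with no overlap, and had 1.96 (SE 0.36, adjusted p = 0.000537). Srebf1, the master regulator of the pathway, had 0.69 (adjusted p = 0.00816) and Dgat2, which makes triglyceride, 0.42 (SE 0.07, adjusted p = 0.000357). Of 14 lipid droplet genes, 3 fell and 0 rose by edgeR's test (0 at an unadjusted p under 0.05, 0 by DESeq2 and 0 by limma-voom). Plin2, the droplet coat protein, was at 369 to 767 (median 612) CPM and 250.2 to 396 (median 302) CPM, with some overlap, and had -0.90 (SE 0.18, adjusted p = 0.00129), and Hilpda, an inhibitor of lipolysis, had -0.86. Of 37 genes of fatty acid oxidation and PPAR alpha, 1 was higher and 4 lower (2 lower without MCF10A EV replicate 3 or 6 or miR-122-labelled replicate 1, 2 or 6), Cpt2 among them (-0.38). Those 4 of 37 are a share near that of all genes tested. Fgf21, a fasting hormone of liver, had -1.76 (SE 0.46, adjusted p = 0.0098). Of 23 cholesterol genes 1 was higher and 0 lower by edgeR's test (1 at an unadjusted p under 0.05, 0 by DESeq2 and 0 by limma-voom). By library names Thrsp had 1.57, Srebf1 0.30, Dgat2 0.26, Plin2 -0.34, Hilpda -0.40 and Fgf21 -0.91, and 0 lipid droplet genes passed.

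Sterol export and bile acid genes included some of those that set the miR-122-labelled livers apart. Abcg5 and Abcg8 encode the 2 parts of the transporter that moves sterols into bile. Abcg5 was at 67.8 to 149.8 (median 110.4) CPM and 177 to 261 (median 186) CPM, and Abcg8 at 49.5 to 139.8 (median 91.1) CPM and 153 to 258 (median 154) CPM. In both, all 6 miR-122-labelled livers were above the other 18, and replicate 3 was highest. Abcg5 rose by 0.84 (SE 0.13, adjusted p = 0.00012) and Abcg8 by 0.92 (SE 0.18, adjusted p = 0.00108). PBS livers had 105 to 144 CPM of Abcg5 and 66.3 to 122.2 CPM of Abcg8, and by library names the values were 0.38 and 0.44 (adjusted p = 0.0758 and 0.137). The genes lie head to head. Their RefSeq start sites are 110 bases apart, so the 300-base windows of Abcg8 (chr17:84682871-84683170, plus strand, GRCm38.p6) and Abcg5 (chr17:84682962-84683261, minus strand) overlap. The window of Abcg8 is shown, with the 209 bases shared with Abcg5 in capitals.
Abcg8 promoter: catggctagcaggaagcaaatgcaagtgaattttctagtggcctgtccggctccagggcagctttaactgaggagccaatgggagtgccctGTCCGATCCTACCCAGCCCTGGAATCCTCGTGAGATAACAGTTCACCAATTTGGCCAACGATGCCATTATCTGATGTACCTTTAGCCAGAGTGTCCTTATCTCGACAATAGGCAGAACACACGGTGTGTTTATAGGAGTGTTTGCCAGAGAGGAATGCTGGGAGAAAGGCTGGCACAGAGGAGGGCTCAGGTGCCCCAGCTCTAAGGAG

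Of 22 genes of bile acid synthesis and transport, 5 were higher and 3 lower, against 2 and 0 by library names. By labels, 7.53% of all genes tested were higher and 8.71% lower. Cyp8b1 fell as given above. Hsd3b7, an early enzyme of the pathway, had -0.63 (SE 0.10, adjusted p = 0.000117) and the racemase Amacr -0.53. Cyp39a1, an oxysterol 7-alpha-hydroxylase, had 0.81 (SE 0.23, adjusted p = 0.0184), the reductase Akr1d1 0.48 and the canalicular exporter Abcc2 0.61. Cyp7a1, the rate-limiting enzyme, did not pass (1.16, adjusted p = 0.168). Taken by library names, the values were -0.31 for Hsd3b7, -0.22 for Amacr, -0.22 for Cyp39a1, 0.40 for Akr1d1 and 0.59 for Abcc2.

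Drug and xenobiotic genes that passed were all higher: 11 of 41, with 0 lower by edgeR's test (2 at an unadjusted p under 0.05, 0 by DESeq2 and 0 by limma-voom) and a median of 0.23. Cyp2a5, a coumarin hydroxylase, was at 196 to 466 (median 364) CPM and 1467 to 2429 (median 1993) CPM, with no overlap, and rose by 2.47 (SE 0.27, adjusted p = 6.84e-07). PBS livers, at 448 to 1699 CPM, reached into the range of the miR-122-labelled livers, and the MCF10A EV livers against PBS livers had -1.37. Its relative Cyp2a4 had 1.86, and 53.5% and 56.9% of their words are shared with other genes. Por, which passes electrons to microsomal cytochromes, had 0.87 (SE 0.16, adjusted p = 0.000445), the monooxygenase Fmo5 0.60, the sulfotransferase Sult1d1 0.65, Cyp1a2 0.49 and the bilirubin transferase Ugt1a1 0.29. Of 21 NRF2 targets, 3 were higher and 1 lower (1 higher without MCF10A EV replicate 2 or 6). Of 23 female-biased genes, 5 were higher and 1 lower (2 or 3 higher without any 1 of 8 libraries), and of 31 male-biased genes 3 were lower and 0 higher by edgeR's test (1 at an unadjusted p under 0.05, 0 by DESeq2 and 0 by limma-voom). The shares of all genes tested were 7.53% higher and 8.71% lower, and those 3 of 31 are near the latter. Cux2, a repressor that female livers express, had 1.49 (SE 0.31, adjusted p = 0.00195) and the MCF10A EV livers against PBS livers -1.69. By library names Cyp2a5 had 1.53, Cyp2a4 1.08, Por 0.45 and Cux2 0.57, with 6 xenobiotic genes higher and 1 lower.

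Markers of Kupffer cells and macrophages were higher in the miR-122-labelled livers: 13 of 26 rose and 0 fell by edgeR's test (3 at an unadjusted p under 0.05, 0 by DESeq2 and 0 by limma-voom), with a median of 0.41, against 7.53% higher over all genes. Marco, a scavenger receptor, was at 11.1 to 13.7 (median 12.1) CPM and 15.8 to 50.8 (median 22.9) CPM. The groups did not overlap, miR-122-labelled replicate 3 was the highest, and the gene rose by 1.13 (SE 0.25, adjusted p = 0.00329). Vsig4, the complement receptor of resident Kupffer cells, was at 13.8 to 18.7 (median 16.4) CPM and 20.6 to 42.2 (median 26.5) CPM, again with no overlap, and had 0.75 (SE 0.14, adjusted p = 0.000524). Cd5l, a secreted macrophage protein, was at 31.2 to 58.1 (median 41.5) CPM and 54.3 to 155 (median 81.1) CPM and had 0.99 (SE 0.21, adjusted p = 0.00212), and Emr1, which encodes F4/80, 1.06 (SE 0.24, adjusted p = 0.00361), each with overlap. Spic, the factor of iron-recycling macrophages, had 0.87, Timd4, a receptor for dying cells, 0.86, the antibody receptor Fcgr1 0.63 and the iron exporter Slc40a1 0.41. Clec4f, a lectin specific to Kupffer cells, had 0.42 (adjusted p = 0.0608) and passed without MCF10A EV replicate 3 or miR-122-labelled replicate 4 or 5. The list's summed level was 627 to 754 CPM (median 688) in the MCF10A EV livers and 705 to 1350 (median 899) in the miR-122-labelled livers. PBS livers had 689 to 798 CPM and the livers labelled MDA-MB-231 EV 621 to 840. Over the 12 omissions 9 to 17 members rose, with 9 and a median of 0.27 without miR-122-labelled replicate 3. By library names 0 members rose, and the values were 0.09 for Marco, 0.10 for Vsig4, -0.13 for Cd5l and -0.07 for Emr1. In whole liver, more cells of a type and more RNA per cell cannot be told apart.

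**Figure D3:**
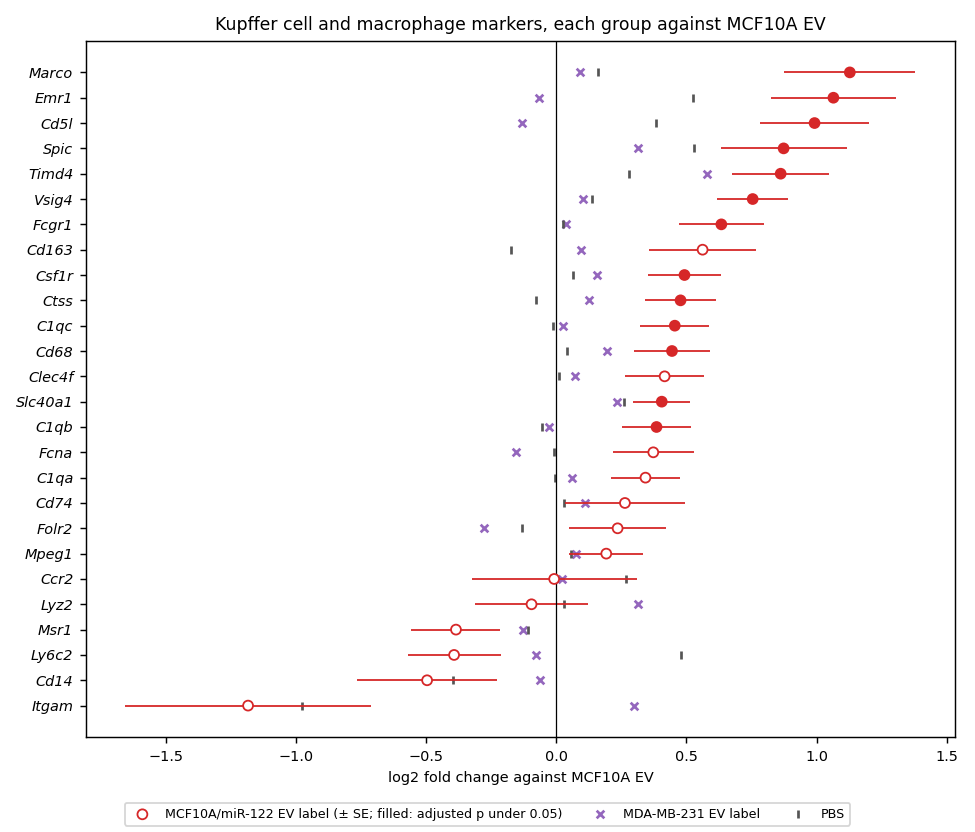
Log2 fold change against MCF10A EV of 26 macrophage markers in the miR-122-labelled livers (circles with SE bars, filled where the adjusted p is under 0.05), in the livers labelled MDA-MB-231 EV (crosses) and in PBS livers (ticks). Marco (1.13), Emr1 (1.06) and Cd5l (0.99) lead the 13 that passed.

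Of 20 tested factors that have been linked to a premetastatic niche, 6 were higher and 0 lower by edgeR's test (2 at an unadjusted p under 0.05, 0 by DESeq2 and 0 by limma-voom). The 6 were Saa1, Saa3, Lcn2, Vcam1, Cxcl12 and Itgb1, and 7.53% of all genes tested were higher. Vcam1, an adhesion molecule of sinusoidal endothelium and macrophages, was at 7.95 to 11.7 (median 9.96) CPM and 14.2 to 53.1 (median 30.6) CPM with no overlap and had 1.66 (SE 0.28, adjusted p = 0.000209). PBS livers had 8.38 to 23 CPM. The neutrophil alarmins S100a8 and S100a9 did not pass, at -1.59 (adjusted p = 0.106) and -1.13 (adjusted p = 0.154). By library names Vcam1 had 0.74, and 1 factor was higher and 1 lower.

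Interferon-stimulated genes that passed were lower with 1 exception: of 48, 9 fell and 1 rose, with a median of -0.26. The shares of all genes tested were 8.71% lower and 7.53% higher. The exception was Cxcl9, an interferon-gamma-induced chemokine, with 1.13 (SE 0.25, adjusted p = 0.00304). Among the lower genes were the GTPases Gbp6 (-0.93), Irgm1 (-0.43) and Irgm2 (-0.62) and the peptide transporter Tap1 (-0.65, adjusted p = 0.00314). Of the 32-base words of Gbp6, 74% occur in other genes, so its own level is uncertain. Without MCF10A EV replicate 5, which had 90.5 CPM of Irgm1 against 50.7 to 61.4 in the other 5, 4 fell, the list's median was -0.14 and Irgm1 had -0.28, and without MCF10A EV replicate 1 the count was 5. Of 18 MHC presentation genes, 4 were lower and 0 higher by edgeR's test (0 at an unadjusted p under 0.05, 0 by DESeq2 and 0 by limma-voom; 2 lower without any 1 of 8 libraries), H2-T23 among them with -0.41 (SE 0.06, adjusted p = 7.95e-05). The MHC list's median was 0.07, and 11 of its 18 genes had a positive value. For H2-T23, every library of the last number range lay below every library of the first. PBS livers had 127 to 142 CPM and the livers labelled MDA-MB-231 EV 98.4 to 109 CPM. By library names Cxcl9 had 0.57, Gbp6 -0.25, Tap1 -0.42 and H2-T23 -0.43, and 1 interferon-stimulated gene was lower.

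Of 28 tested genes of the unfolded protein and integrated stress response, which include chaperones and transcription factors, 13 fell and 2 rose, and 9 to 13 fell over the 12 omissions. The shares of all genes tested were 8.71% lower and 7.53% higher. PBS livers lay nearer to the miR-122-labelled livers than to the MCF10A EV livers in this list's summed level, which had a median of 5700 CPM in the MCF10A EV livers, 4710 in the miR-122-labelled livers, 4490 in PBS livers (4230 to 6210) and 5180 in the livers labelled MDA-MB-231 EV. Atf5, a transcription factor of this response, was at 331 to 425 (median 394) CPM and 195 to 277 (median 218) CPM with no overlap and had -0.79 (SE 0.11, adjusted p = 1.78e-05). Creld2 (-0.88), Sdf2l1 (-0.80), Pdia4 (-0.54), Calr (-0.47) and the transcription factor gene Xbp1 (-0.51) were lower too. The medians in the MCF10A EV livers, the miR-122-labelled livers and PBS livers were 45.7, 24.6 and 26 CPM for Creld2, 31.7, 17.4 and 20.3 for Sdf2l1 and 847, 564 and 613 for Calr. In each of these 3 the median of the MCF10A EV livers was the highest of the 3 groups. Hspa5, which encodes the chaperone BiP, was at 693 to 907 (median 754) CPM and 502 to 651 (median 548) CPM, with no overlap, and had -0.44 (SE 0.15, adjusted p = 0.0473). That call was lost without MCF10A EV replicate 1, 2, 4, 5 or 6 or miR-122-labelled replicate 2, 3, 5 or 6 (-0.47 to -0.39), and PBS livers spanned 413 to 1018 CPM. The higher genes were Ddit4, given above, and Herpud1, a part of the degradation machinery, which was at 174 to 457 (median 331) CPM and 494 to 647 (median 563) CPM and had 0.82 (SE 0.15, adjusted p = 0.000612). By library names 3 were lower and 1 higher, with -0.62 for Atf5, -0.54 for Creld2, -0.23 for Pdia4, -0.50 for Xbp1 and 0.71 for Herpud1. Of 22 cytosolic heat shock chaperones, 6 were lower and 0 higher by edgeR's test (1 at an unadjusted p under 0.05, 1 by DESeq2 and 0 by limma-voom), among them Hspa4l (-0.80), Hsp90aa1 (-0.75) and Stip1 (-0.49). By library names 0 of them were lower and 1 was higher.

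**Figure D4:**
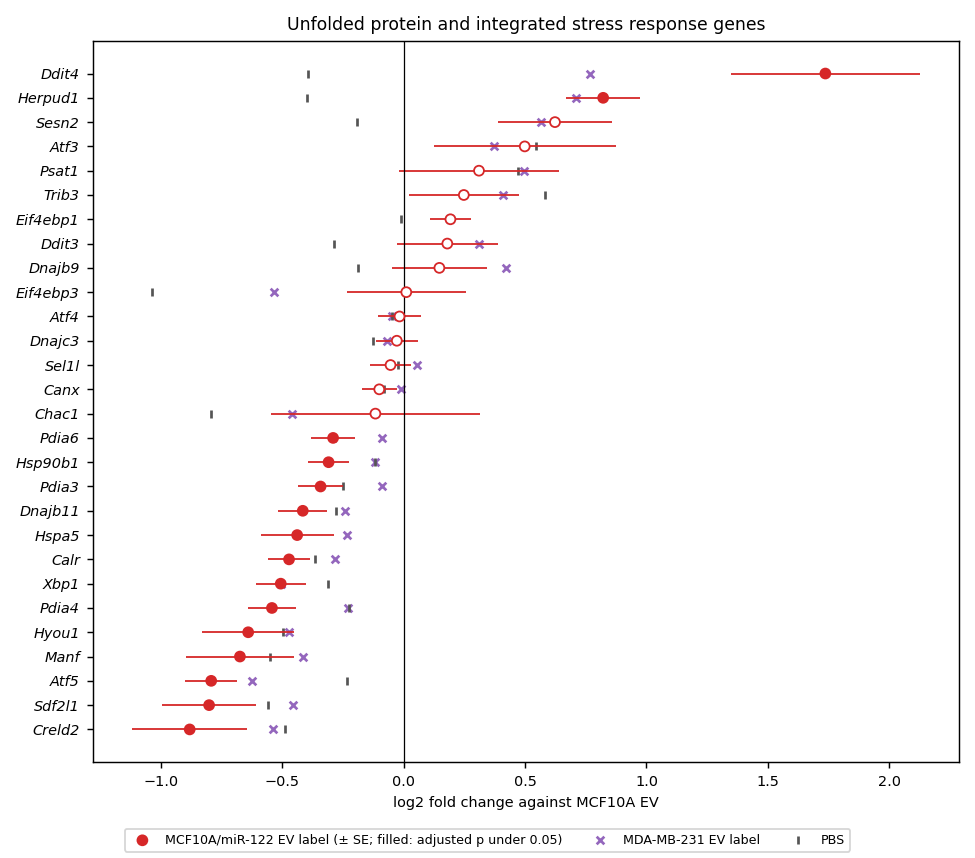
Log2 fold change against MCF10A EV of 28 genes of the unfolded protein and integrated stress response in the miR-122-labelled livers (circles with SE bars, filled where the adjusted p is under 0.05), in the livers labelled MDA-MB-231 EV (crosses) and in PBS livers (ticks). Ddit4 (1.74) and Herpud1 (0.82) are the filled circles on the right, and the 13 filled circles on the left reach -0.88 for Creld2.

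Of 37 tested genes reported in earlier work as miR-122 targets, 2 were higher and 3 lower, shares near or below those of all genes, and the median was 0.05 against -0.00387 over all genes. A microRNA lowers the messenger RNA of its targets. Lass6, a ceramide synthase, was at 6.04 to 8.74 (median 7.86) CPM and 8.76 to 17.3 (median 15.2) CPM, with no overlap, and rose by 0.92 (SE 0.17, adjusted p = 0.00064). Vamp3, a vesicle fusion protein, had 0.41 (SE 0.10, adjusted p = 0.00668). Hfe2, hemojuvelin, a coreceptor in hepcidin control, was at 40.2 to 84.9 (median 52.9) CPM and 19.2 to 48.8 (median 29) CPM and had -0.91 (SE 0.20, adjusted p = 0.00256). Its groups overlapped, and the livers labelled MDA-MB-231 EV were at 20.9 to 40.6 CPM. Smarcd1, a chromatin remodelling subunit, was at 4.71 to 7.3 (median 5.86) CPM and 3.38 to 4.32 (median 3.69) CPM with no overlap and had -0.67 (SE 0.13, adjusted p = 0.000693). PBS livers had 4.5 to 7.62 CPM of Smarcd1 and the livers labelled MDA-MB-231 EV 3.63 to 4.4 CPM. Every library of the last number range was thus below every library of the first. Bckdk, the kinase that restrains branched-chain amino acid breakdown, had -0.55 (SE 0.10, adjusted p = 0.000795). The widely used targets Aldoa and Slc7a1 did not pass, at 0.24 (adjusted p = 0.24) and -0.22 (adjusted p = 0.656). By library names 1 was higher and 3 lower, with 0.60 for Lass6, 0.24 for Vamp3, -0.87 for Hfe2, -0.62 for Smarcd1 and -0.45 for Bckdk. Without miR-122-labelled replicate 4, 4 were higher. Seed matches of miR-122 are not analysed here.

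Cell cycle genes differed for a few members. Of 19 cyclins and CDK inhibitors, 3 were higher and 2 lower, against 7.53% and 8.71% of all genes tested. Ccne1, cyclin E1 of S-phase entry, was at 0.228 to 0.465 (median 0.376) CPM and 1.04 to 3.2 (median 1.77) CPM, with no overlap, and had 2.34 (SE 0.38, adjusted p = 0.000161). Ccnd1, cyclin D1, was at 26 to 46.2 (median 35) CPM and 39.7 to 84 (median 66.5) CPM and had 0.82 (SE 0.18, adjusted p = 0.00315), but PBS livers had 66.4 to 98.6 CPM, and the MCF10A EV livers against PBS livers had -1.27. Cdkn1a, the inhibitor p21, was at 5.32 to 59.7 (median 24) CPM and 2.64 to 10.8 (median 5.89) CPM, with overlap, and had -2.23 (SE 0.58, adjusted p = 0.0102), by library names -2.53. PBS livers, at 2.2 to 34.4 (median 4.8) CPM, had a median near that of the miR-122-labelled livers. Of 35 genes of DNA replication and mitosis, 5 were higher and 1 lower (9 higher without miR-122-labelled replicate 5), among them Top2a (1.35), for which the MCF10A EV livers against PBS livers had -1.62, and Tk1 (0.69). Mki67 did not pass (1.12, adjusted p = 0.0529). With the names of the libraries the values were 1.82 for Ccne1, 0.98 for Ccnd1 and 1.26 for Top2a.

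A larger group of genes separated the 2 number ranges. In 24 genes (0.174%) all 12 libraries of the last range were above all 12 of the first, and in 102 (0.741%) below. These counts leave out genes already counted as highest or lowest in the miR-122-labelled livers that also separated the ranges, such as Cyp4f16. Histone genes were the main family among the 102. Of 56 tested histone cluster genes, 51 were lower and 0 higher by edgeR's test (0 at an unadjusted p under 0.05, 0 by DESeq2 and 0 by limma-voom; 45 to 53 lower over the 12 omissions), with a median of -0.96, and -0.78 by library names. Hist1h2ak was at 4.95 to 7.65 (median 6.11) CPM in the MCF10A EV livers and 4.83 to 5.95 CPM in PBS livers, against 0.433 to 0.959 (median 0.632) CPM in the miR-122-labelled livers and 0.267 to 0.636 CPM in those labelled MDA-MB-231 EV. Its log2 fold change was -3.21 (SE 0.17, adjusted p = 1.64e-12), and that of Hist1h2af -2.10. Most replication-dependent histone messages end in a stem loop without a poly(A) tail. Of 98 of the 102 genes matched to a genome annotation, 51 (52%) share at least 10% of their words with another gene, against 14.1% of all tested genes. Ptcra, which encodes a pre-T cell receptor chain, gave 51 to 143 counts per library in the MCF10A EV livers, 47 to 65 in PBS livers and 0 or 1 in both groups of the last range.

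Other genes are named by the size of their change. Ren1 was at 3.82 to 9.15 (median 6.53) CPM in the MCF10A EV livers and at 10.6 to 53.1 (median 31.5) CPM in the miR-122-labelled livers. Ren1, renin, rose by 2.30 (SE 0.38, adjusted p = 0.000173), and its near copy Ren2, with 2.33, may hold the same reads. PBS livers had 4.31 to 15.4 (median 6.43) CPM of Ren1. Mup5, a urinary protein, ranged over 31.2 to 759.9 (median 125) CPM in the MCF10A EV livers and 13.6 to 41.9 (median 29.9) CPM in the miR-122-labelled livers, with -2.87 (SE 0.64, adjusted p = 0.0031), or -1.80 without MCF10A EV replicate 3, and PBS livers had 23.5 to 214 (median 50.1) CPM. Nckap5 had -2.40, AV051173 -2.24 and the DNA methyltransferase gene Dnmt3b -1.94. In each of them, every library of the last number range lay below every library of the first. PBS livers had 3.06 to 6.14 CPM of Nckap5, 3.83 to 4.62 of AV051173 and 2.86 to 8.58 of Dnmt3b. The livers labelled MDA-MB-231 EV had 0.777 to 2.12, 0.641 to 1.02 and 1.25 to 2.29 CPM. Among genes above in all 12 of the last range were Coq10b (2.04), the small Maf factor Maff (2.04) and the amino acid transporter gene Slc38a2 (1.21). By library names these 3 had 1.57, 1.27 and 0.79. The MCF10A EV livers alone stood apart from the other 18 libraries in 4 tested genes, not counting genes of the patterns above. They were above in 1 (0.00726%), Cyp2d12, a cytochrome at 66.5 to 85.9 (median 73.1) CPM against 25.2 to 41.7 (median 35.5) CPM with -1.12 (SE 0.13, adjusted p = 1.31e-06), and below in 3 (0.0218%), of which Zfp385b (0.78) and the importin gene Ipo5 (0.44) passed.

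Hepatocyte markers had the highest summed level of the cell type lists in both groups. The 20 hepatocyte markers summed to 177000 to 218000 CPM in the MCF10A EV livers and 192000 to 232000 CPM in the miR-122-labelled livers, with 1 higher and 0 lower by edgeR's test (2 at an unadjusted p under 0.05, 0 by DESeq2 and 0 by limma-voom) and a median of 0.03. Of 23 sinusoidal endothelial markers, 1 was higher and 1 lower, and of 19 stellate cell markers 1 was higher and 0 lower by edgeR's test (1 at an unadjusted p under 0.05, 0 by DESeq2 and 0 by limma-voom). Of 11 cholangiocyte markers 2 were lower and 0 higher (0 at an unadjusted p under 0.05, 0 by DESeq2 and 0 by limma-voom). No tested marker of neutrophils (4), erythroid cells (7), platelets (5), pancreatic acinar cells (3) or adipocytes (5) passed by edgeR's test. At an unadjusted p under 0.05, 2 neutrophil markers and 1 acinar marker were lower and 1 platelet and 1 adipocyte marker higher. DESeq2 called 1 acinar and 1 adipocyte marker and limma-voom 0. Of 4 tested lymphocyte markers Cd79b was higher and Ptcra lower, and of 3 skeletal muscle markers 1 was lower, Acta1 (-1.48). Acta1 was at 3.1 to 5.17 CPM in the MCF10A EV livers and 3.56 to 4.92 in PBS livers. It was at 1.03 to 1.91 CPM in the miR-122-labelled livers and 1.06 to 1.8 in those labelled MDA-MB-231 EV. The number ranges did not overlap for this gene. Neutrophil markers summed to 1.6 to 9.21 CPM over all groups. Among 10 signs of RNA quality or dissection, 1 passed: Neat1, a nuclear RNA, was at 117 to 586 (median 321) CPM and 67.5 to 116 (median 83.2) CPM, with -1.79 (SE 0.37, adjusted p = 0.00187). PBS livers had 129 to 553 CPM of Neat1 and the livers labelled MDA-MB-231 EV 73.7 to 224 CPM. By library names Neat1 did not pass. The part of Neat1 in the other results was not tested.

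The remaining lists moved little or in few members. Their counts are to be read against 7.53% higher and 8.71% lower over all genes tested. Of 76 ribosomal protein genes, 6 were lower and 0 higher by edgeR's test (0 at an unadjusted p under 0.05, 0 by DESeq2 and 0 by limma-voom), with a median of -0.12 (11 or 12 lower without MCF10A EV replicate 3 or miR-122-labelled replicate 3 or 5). Of 68 oxidative phosphorylation subunits, 1 was lower and 0 higher by edgeR's test (0 at an unadjusted p under 0.05, 0 by DESeq2 and 0 by limma-voom; 5 lower without miR-122-labelled replicate 5). Of 24 hepatokines and secreted regulators, 1 was higher and 5 lower (2 or 3 lower without any 1 of 10 libraries), Fgf21 among them. Of 19 hepatocyte transcription factors, 1 was higher and 3 lower, including Foxa2 (-0.97) and Gata4 (-0.58), which had -1.21 and -0.67 by library names. Of 41 complement and coagulation genes, 3 were higher and 2 lower (1 higher without MCF10A EV replicate 4 or 5 or miR-122-labelled replicate 3 or 6, and 6 without miR-122-labelled replicate 5). Of 23 genes of the urea cycle and amino acid breakdown, 3 were higher and 1 lower (5 higher without miR-122-labelled replicate 2). Of 17 pericentral Wnt targets, 1 was higher and 0 lower by edgeR's test (1 at an unadjusted p under 0.05, 0 by DESeq2 and 0 by limma-voom; 3 higher without miR-122-labelled replicate 4), and of 26 collagen and matrix genes 1 was higher and 0 lower (0 at an unadjusted p under 0.05, 0 by DESeq2 and 0 by limma-voom).

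**Figure D5:**
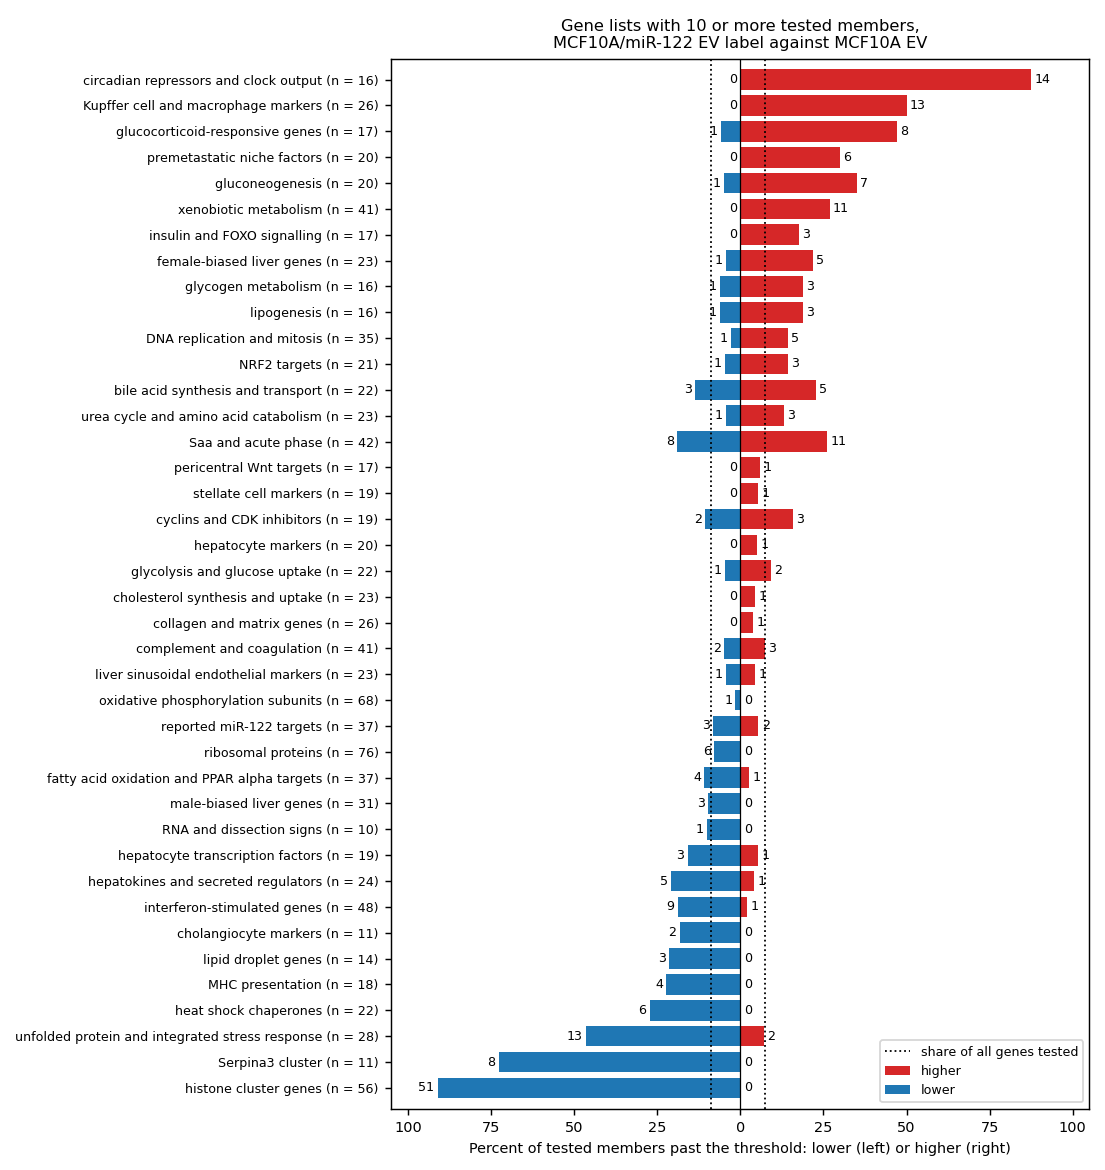
Percent of the tested members of each gene list with 10 or more tested members that were higher (right) or lower (left) in the miR-122-labelled livers than in the MCF10A EV livers, with the number of genes at the end of each bar and the share of all genes tested as dotted lines. Clock repressors and outputs (14 of 16 higher) and histone genes (51 of 56 lower) lie at the 2 ends.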

How the data were processed

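Per the labels' protocols, RNA came from whole liver by TRIZOL, and a Kapa stranded kit for mRNA gave the libraries. The authors deposited 1 table of raw read counts per gene symbol for all 24 libraries. The submitters' processing notes name bcl2fastq 2.18.0.12, TopHat2 and the mm9 build. Which tool, annotation and strand setting made the counts is not given in the sources used here, so overlapping and antisense genes cannot be separated. Of 23240 rows, 27 that share 11 symbols were left out (0.0744% of counts), and 13773 genes passed edgeR's filter on low counts.

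Counts were fitted as deposited with edgeR 4.0.16 (R 4.3.3): TMM scaling, quasi-likelihood F test, 1 mean per group over all 24 libraries, two-sided, Benjamini-Hochberg adjustment over all genes tested, threshold 0.05. SE is the log2 fold change over the root of F. Fits were tested on simulated counts. Named genes were the 12 largest rises and falls (adjusted p past the threshold, average log2 CPM 1 or more, direction held in 5 or more of 6 libraries), the 8 largest in each direction of the patterns over the 4 groups, and members of 48 lists. Members, lists and rule were chosen with earlier results of these data known. Alternatives were RLE scaling, DESeq2 1.42.0, limma-voom 3.58.1, a strict filter (1 CPM in 6 libraries), no filter, the 12 libraries alone, the identities of the library names, a replicate block and each library left out. Shared 32-base words were counted in GENCODE M21 transcripts, and promoters came from RefSeq, where 16 of 19 symbols matched. Shares not given above were 85.6% for Hist1h2af, 69.3% for Hist1h2ak, 58.5% for Ugt1a1, 54.6% for Hsd3b7 and 51.1% for Hsp90aa1. Ccrn4l had 36.2%, Mup5 35.3%, Orm2 33.3%, H2-T23 23.7% and Gm129 20.3%. Cyp2d12 had 15.3%, Dnmt3b 13.2%, Aldoa 12.9%, Irgm2 10.6% and Ipo5 10.1%. The own levels of these genes are uncertain too. No libraries were near identical. Some genes that the rule names are not reported here.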

Additional observations from a re-analysis of the deposited data

Results flagged for a closer look

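Of 284 groups of 6 libraries (142 genes in the 2 groups compared), 17 held 1 library far from the other 5, with a gap to them above Dixon's critical share of the group's range. Chance gives such a library in about 1 in 20 groups, or 14.2 here. MCF10A/miR-122 EV replicate 3 accounted for 8 of the 17 and MCF10A EV replicate 5 for 3.

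In MCF10A/miR-122 EV replicate 3, Il18bp was at 15.9 CPM (9.83 to 11.7 in the other 5), Abcg5 at 261 (177 to 193), Abcg8 at 258 (153 to 163), Nr1d2 at 140.0 (107 to 118), Ppp1r3g at 128 (20.7 to 31.9), Pck1 at 5650 (3540 to 4140) and Fcgr1 at 6.41 (3.55 to 4.14). Hlf was low there, at 37.1 CPM (50 to 54). Without this library Abcg5, Abcg8, Il18bp, Nr1d2, Hlf, Ppp1r3g and Fcgr1 still passed.

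In the MCF10A EV livers, replicate 5 had 898 CPM of Pck1 (2331 to 3981 in the other 5), 90.5 of Irgm1 (50.7 to 61.4) and 550 of Hsp90aa1 (309 to 380). Replicate 4 had 31.8 CPM of Nr1d2 (54.4 to 72.4), and replicate 3 had 2.02 of Cyp7a1 (17.7 to 37.8).

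Among the other MCF10A/miR-122 EV livers, replicate 2 had 4.71 CPM of 2010003K11Rik (5.93 to 6.61), replicate 4 had 181 of Abcc2 (283 to 318) and 8.76 of Lass6 (13.5 to 17.3), and replicate 5 had 2.74 of Hist1h2af (1.51 to 1.68).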

How the results depend on the processing

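By edgeR with only the 12 libraries compared, 762 genes were higher and 761 lower; with the identities of the library names, 1058 genes passed, 446 higher and 612 lower. Leaving out each library in turn gave 1653 to 2575 genes past the threshold, 766 to 1294 higher and 841 to 1281 lower. Other settings stayed within 1.5 times: RLE 2247, DESeq2 2543, limma-voom 2227, the strict filter 2213 and no filter 1993. The replicate block gave 2356 (1094 higher, 1262 lower). Whether same-numbered libraries of both groups pair was not settled. The correlation of their deviations passed 0.1 in 3 of 6 pairs, and 2 of the 6 MCF10A EV libraries correlated best with their own number. Under the strict filter, 15 genes were highest and 9 lowest in the MCF10A/miR-122 EV livers, 24 were higher and 89 lower in the last number range, and the MCF10A EV livers were highest in 1 and lowest in 2. A gene that met several of these patterns was counted under the first of them, as above.

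Of 142 genes with values here, 127 passed, and 124 of them kept direction and call in every setting but the library names. Lcn2, Clock and Hspa5 lost the call without at least 1 library, and Hspa5 also with RLE, no filter and the block. With the library names 51 lost the call and 7 reversed: Saa1 (-0.0311), Cxcl13 (-0.28), Lcn2 (-0.81), Orm2 (-0.22), Cyp39a1 (-0.22), Emr1 (-0.0653) and Cd5l (-0.13). Of genes that did not pass, Hp (-0.15) and Nr1d1 (0.51) also changed sign there, and Nr1d1 without MCF10A EV replicate 6 (0.0766) or MCF10A/miR-122 EV replicate 2 (0.05) or 6 (0.02). Ppargc1a passed with RLE, DESeq2 and the strict filter, Lonrf3 and Clec4f with DESeq2, and Mki67 with DESeq2, limma-voom and the 12 libraries. Members of the DNA replication and mitosis list that were higher numbered 12 with DESeq2 and 9 with the 12 libraries. The cause of these moves was not tested. The alternative with stricter miR-122 seed sites was not run. Low depth limits Serpina3b (1 to 4 counts per library) and Npas2 (3 to 9) in the MCF10A/miR-122 EV livers and Ccne1 (6 to 13), Amica1 (9 to 23) and Cxcl13 (11 to 28) in the MCF10A EV livers.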
